A study of Mus musculus with 10 samples.

Results

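Tia1, Tial1, Elavl1 and Elavl2 encode 4 RNA-binding proteins of the TIA and ELAV families. They were chosen by gene name from the 26857 entries of the deposited expression table, each name was found in 1 entry, and their loci held 23 of the 35639 iCLIP clusters listed for RBFOX2. All measurements were made in the mouse embryonic stem (ES) cell line V6.5. RNA-seq followed lentiviral delivery, in biological duplicates, of a hairpin against luciferase (shLuc) or GFP (shGFP) as controls, or either of 2 hairpins against the splicing regulator Rbfox2 (shFox2-1, shFox2-2), with puromycin at 1 µg/ml for 3 days and a harvest after 24 h without it, which gave 8 poly(A)-selected libraries. For iCLIP, which maps the RNA crosslinked to a protein, cells carried a doxycycline-inducible lentivirus for human RBFOX2 with a FLAG-HA tag, or untagged as the control, after hygromycin selection at 150 µg/ml for 6 days, were induced with 1 µg/ml doxycycline for 24 h, and were crosslinked with UV at 150 mJ/cm2. Both libraries were amplified by PCR for 16 cycles and the untagged one for 7 more, and every fold given here is over that untagged library. The bound RBFOX2 was therefore human protein expressed from a vector in cells that kept their own Rbfox2.

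TIA1 and its paralog TIAL1 (also called TIAR) bind uridine-rich RNA. In the nucleus they bind introns just downstream of weak donor splice sites and help to recruit the U1 snRNP, and in the cytoplasm they repress translation and gather in stress granules. The ELAV proteins bind AU-rich and uridine-rich elements, mostly in the untranslated ends of mRNAs, and are known for stabilising them. ELAVL1 (HuR) is found in most cell types, whereas ELAVL2 (HuB), ELAVL3 (HuC) and ELAVL4 (HuD) are known from neurons, ELAVL2 also from germ cells. RBFOX2 binds GCAUG in introns and exons and shifts the inclusion of nearby alternative exons. Expression was given per gene, so the share of any isoform was not measured.

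The promoter windows of the paralogous TIA genes are printed because their mRNA values lay on opposite sides of the controls in both knockdown hairpins. Each holds 250 bases before and 50 bases after a RefSeq gene start on build GRCm38.p6, 5′ to 3′ on the gene's strand, Tia1 from chr6:86403969-86404268 (plus strand) and Tial1 from chr7:128461624-128461923 (minus strand). Capitals mark GCATG or its reverse complement CATGC, which overlap where GCATGC is read.
Tia1: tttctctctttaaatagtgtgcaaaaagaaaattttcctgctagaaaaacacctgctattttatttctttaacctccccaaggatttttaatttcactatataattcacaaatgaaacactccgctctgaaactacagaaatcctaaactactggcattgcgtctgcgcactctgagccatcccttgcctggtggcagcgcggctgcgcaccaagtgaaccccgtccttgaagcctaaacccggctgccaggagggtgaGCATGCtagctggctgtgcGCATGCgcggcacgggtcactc
Tial1: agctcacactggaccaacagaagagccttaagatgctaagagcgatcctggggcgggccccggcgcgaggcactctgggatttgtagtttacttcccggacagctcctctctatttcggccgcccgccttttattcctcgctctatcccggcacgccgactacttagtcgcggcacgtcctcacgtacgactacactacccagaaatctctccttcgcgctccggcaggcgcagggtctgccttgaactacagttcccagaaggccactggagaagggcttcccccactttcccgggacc
The Tia1 window held GCATGC at 2 places, both after the gene start, so that each place carried the motif on both strands. Of 32851 RefSeq windows, 33.1% held GCATG on either strand, and 3.60% held it on the gene's strand after the start. Neither of the 2 Tial1 windows held the motif, the 1 window of Elavl1 held it once, as CATGC, and 5 of the 6 windows of Elavl2 held it. Those Elavl2 windows overlap in part and share sites, so they are not separate counts. Every site in the Elavl1 and Elavl2 windows lay before the gene start of its window. No iCLIP cluster lay near the Tia1 start: the first lay 18.5 kb into the locus.

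Expression values were the authors' FPKM, a fragment count scaled by transcript length and by library size, 1 per hairpin with the duplicates pooled, each with a deposited lower and upper bound. The depth was unknown. The targeted Rbfox2 (listed as Rbm9) had 24.7 FPKM with shLuc, 23.3 with shGFP, 8.56 with shFox2-1 and 7.21 with shFox2-2, and its intervals separated the groups, with 32.9% of the control level left. Its shLuc and shFox2-2 values carried a deposited low-data status. In the limma fit over all genes its log2 difference was -1.50 with an adjusted p of 0.913 over 20281 entries, so that fit did not call the targeted gene either. ES cell identity was checked on marker lists. All 9 ES markers were present, from 13.3 FPKM for the lowest value to 517 for the highest, and their summed level was 1371 and 1525 FPKM in the controls and 1374 to 1696 in the knockdown hairpins. Markers of fibroblasts, endoderm and mesoderm stayed at or under 2.17 FPKM in every hairpin. Of 6 neural markers Dcx was listed at 0, the sum was 41.9 to 45.1 FPKM in the controls and 37.5 to 50.2 in the knockdown hairpins, and Tubb3 held the highest value at 38.3. Among the neural markers Sox1, a neural progenitor gene, lay lower in both knockdown hairpins (3.38 and 3.27 against 1.48 and 2.22 FPKM). It was the only one of the 5 expressed neural markers to do so. In the other lists Thy1 (2.12 and 2.17 against 1.21 and 2.05) and Gata4 (1.64 and 1.66 against 1.52 and 1.33) were also lower in both. Tdgf1, Cdx2, Foxa2, Sox17 and Mixl1 were higher in both. Several ES markers were highest in shFox2-1. Nanog had 77.9 FPKM with shLuc, 81.5 with shGFP, 136 with shFox2-1 and 76.0 with shFox2-2, and Zfp42 and Klf4 were likewise highest in shFox2-1, at 189 and 27.0 FPKM. Sox2, Esrrb and Dppa5a were also highest in shFox2-1, whereas Pou5f1 and Utf1 were highest in shGFP and Tdgf1 in shFox2-2. Sox1, Nanog, Zfp42 and Klf4 were singled out after their values were seen. The trophoblast markers summed to 9.16 to 10.8 FPKM in the controls and 9.12 to 17.2 in the knockdown hairpins, mostly from Tfap2c. The part of other cell types in the differences between hairpins was not tested, and in bulk RNA fewer cells of a type and less RNA per cell cannot be told apart.

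By level per length, Tial1 stood highest at a mean of 25.2 FPKM over the hairpins, followed by Tia1 at 15.8, Elavl2 at 9.38 and Elavl1 at 5.34. These are the 79.8th, 69.6th, 55.2nd and 38.7th percentiles of the 12632 expressed entries (mean FPKM of at least 1). Tial1 lay above Tia1 in every hairpin, although in shLuc their intervals overlapped (20.6 to 25.2 against 17.6 to 21.7 FPKM). Elavl2 lay above Elavl1 in every hairpin, and their intervals overlapped in shLuc and shFox2-2 and not in shGFP and shFox2-1. Elavl1 was measured over the locus of its entry, and 3 of the 5 clusters carrying its gene ID lay past the 3′ end of that locus. Whether its mRNA extends there was not tested, so the level of Elavl1 and its order against Elavl2 hold for these entries only. The Elavl2 entry also carries the name LOC664864, a predicted gene, so reads of both are in its value. Both neuronal paralogs lay lower, with Elavl3 at a mean of 1.79 FPKM and Elavl4 at 0.966.

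**Figure D1:**
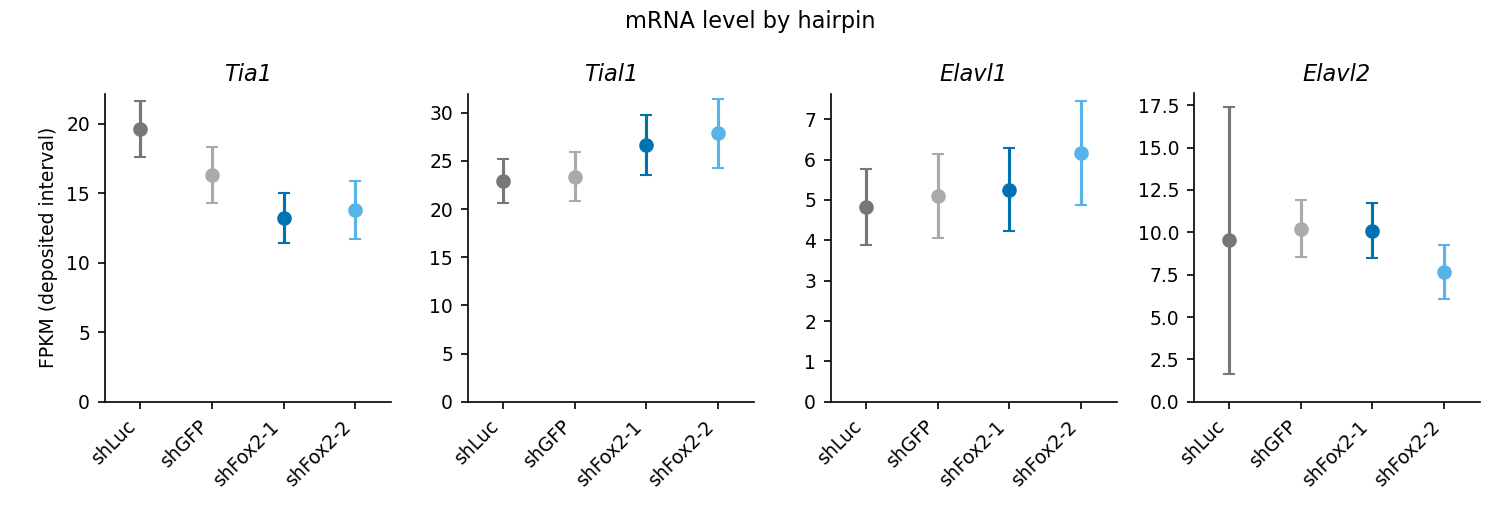
FPKM (y axis, from 0) of the 4 genes in each hairpin (x axis), with points at the deposited value, which pools 2 libraries, and bars at the deposited interval. Tia1 lies lower in both knockdown hairpins (13.2 and 13.8) than in both controls (16.3 and 19.6), Tial1 and Elavl1 lie higher, and the shLuc interval of Elavl2 spans 1.67 to 17.4 FPKM.

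Tia1 (mm9 chromosome 6, 86354308 to 86383399, plus strand) was lower in both knockdown hairpins than in both controls. It stood at 19.6 FPKM in shLuc (interval 17.6 to 21.7), 16.3 in shGFP (14.3 to 18.4), 13.2 with shFox2-1 (11.4 to 15.0) and 13.8 with the other knockdown hairpin, shFox2-2 (11.7 to 15.9). Both knockdown intervals lay under the shLuc interval and overlapped the shGFP interval, and the intervals of the 2 controls overlapped each other. Averaged over hairpins, 75.2% of the control level remained with knockdown. On log2(FPKM + 1) the difference was -0.38 (standard error 0.14, 95% interval -0.74 to -0.03). In the limma fit of 2 knockdown against 2 control values the unadjusted p was 0.0392 and the adjusted p over 20281 entries was 0.978. Set against shLuc alone, Tia1 was separated from the knockdown hairpins, as were 0.309% of expressed entries in that direction, and its difference was -0.51. Set against shGFP alone it was not separated and stood at -0.26, so the size of the difference turned on the control.

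Tial1 (chromosome 7, 135583291 to 135605027, minus strand) went the other way. It stood at 22.9 FPKM in shLuc (20.6 to 25.2), 23.4 in shGFP (20.8 to 25.9), 26.6 with shFox2-1 (23.5 to 29.7) and 27.9 with the other knockdown hairpin, shFox2-2 (24.3 to 31.5). Both knockdown values lay above both controls, and all intervals overlapped. The shLuc value of Tial1 carried a low-data status. The log2 difference was 0.23 (standard error 0.11, 95% interval -0.05 to 0.51, limma unadjusted p = 0.0938, adjusted p = 0.978). Averaged over hairpins, the knockdown level was 118% of the control level.

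The TIA paralogs and the ELAV paralogs were also set against each other within each hairpin. These ratios and sums were chosen after the values were seen, and the order of the Tia1 to Tial1 ratio follows from the order of the 2 genes, so they are given as a description with no test. Tia1 stood at 0.857 of the Tial1 level in shLuc, 0.700 in shGFP, 0.496 in shFox2-1 and 0.496 in shFox2-2. Both knockdown ratios lay below both control ratios, with a difference of -0.64 on the log2 scale. The summed level of Tia1 and Tial1 was 42.6 FPKM in shLuc, 39.7 in shGFP, 39.8 in shFox2-1 and 41.7 in shFox2-2, and the groups overlapped. Elavl1 stood at 0.505 of the Elavl2 level in shLuc, 0.499 in shGFP, 0.520 in shFox2-1 and 0.804 in shFox2-2. Here too the knockdown ratios lay on 1 side of the controls, above them, with shFox2-2 apart from the other 3 hairpins. The summed level of Elavl1 and Elavl2 was 14.4, 15.3, 15.4 and 13.8 FPKM in the same order, and the groups overlapped as well. The Elavl1 values are those of its entry, which ends before most of the cluster coverage assigned to that gene.

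**Figure D2:**
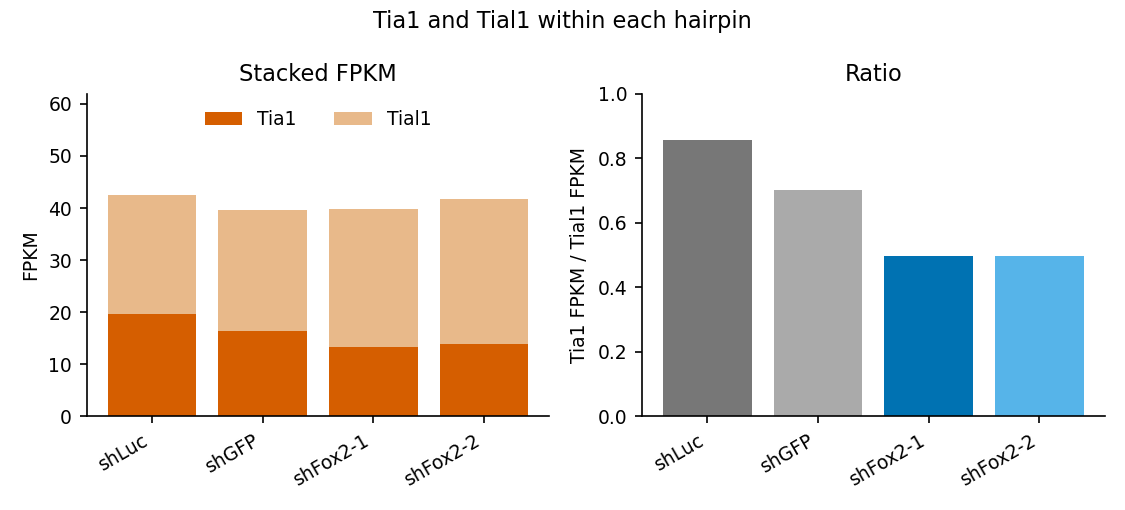
Left, FPKM of Tia1 and Tial1 stacked for each hairpin (y axis from 0); right, the ratio of Tia1 to Tial1 FPKM (y axis from 0), each bar 1 pooled value with no error bar. The stacked level runs from 39.7 to 42.6 FPKM, and the ratio runs from 0.857 in shLuc and 0.700 in shGFP to 0.496 in both knockdown hairpins.

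Elavl1 (chromosome 8, 4308337 to 4325415, minus strand) lay somewhat higher in both knockdown hairpins, with a knockdown level of 115% of the control level. It stood at 4.82 FPKM in shLuc (3.87 to 5.76), 5.10 in shGFP (4.07 to 6.14), 5.26 with shFox2-1 (4.22 to 6.29) and 6.17 with the other knockdown hairpin, shFox2-2 (4.88 to 7.46). All intervals overlapped, and the value in shFox2-2 was the highest. The log2 difference was 0.17 (standard error 0.16, 95% interval -0.23 to 0.56, limma adjusted p = 0.978). With each hairpin centred on its median expressed entry, the difference from the controls was -0.01 in shFox2-1 and 0.38 in shFox2-2.

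Elavl2 (chromosome 4, 90917454 to 91067616, minus strand) was the member least well determined. It stood at 9.54 FPKM in shLuc with an interval of 1.67 to 17.4, at 10.2 in shGFP (8.54 to 11.9), 10.1 with shFox2-1 (8.46 to 11.7) and 7.67 with the other knockdown hairpin, shFox2-2 (6.07 to 9.28). The shLuc bound lay 82.5% of the value away, against 16.2% to 20.9% in the other hairpins, and shLuc, shGFP and shFox2-2 carried a low-data status. All intervals overlapped, and shFox2-2 was the lowest. The log2 difference was -0.15 (standard error 0.17, 95% interval -0.57 to 0.28, limma adjusted p = 0.985). Without shFox2-2 it was 0.03.

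The paralogs Elavl3 and Elavl4 lay near the floor of expression. Of the 5 expressed neural markers only Sox1 was lower in both knockdown hairpins, as Elavl3 was, and Pax6, Tubb3, Neurod1 and Map2 were not. Any link between the neural markers and the Elavl3 values was not tested. Elavl3 had 2.40 FPKM with shLuc, 2.07 with shGFP, 1.36 with shFox2-1 and 1.34 with shFox2-2, a log2 difference of -0.46 (standard error 0.15, limma unadjusted p = 0.0259, adjusted p = 0.978), and all of its intervals overlapped. Both knockdown values lay under both controls. Elavl4 had 0.951 FPKM with shLuc, 1.06 with shGFP, 1.13 with shFox2-1 (low-data status) and 0.727 with shFox2-2.

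Over the 4 genes, limma called 0 at an adjusted p of 0.05, as it called 0 of 20281 entries (0%). At an unadjusted p under 0.05 it gave 1 of the 4, Tia1, against 2.17% of entries lower and 2.3% higher. By intervals 0 of the 4 were separated in either direction, and the background was 0.293% of expressed entries (22 or 0.174% higher, 15 or 0.119% lower). With the hairpins scaled by their median ratio it was 31 higher and 8 lower, and still 0 of the 4. By values alone 3 of the 4 were ordered, Tia1 with both knockdown values below both controls and Tial1 and Elavl1 with both above, and 32% of expressed entries were so ordered, 14.3% higher and 17.8% lower. Taken singly, neither shFox2-1 nor shFox2-2 had a member with an interval outside both control intervals. For shFox2-1 5.44% of expressed entries lay above and 2.11% below, and for shFox2-2 0.348% and 1.98%. The control values are shared by these comparisons.

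The hairpins were not on an identical scale. The median expressed entry lay 0.09 above the mean of the 4 hairpins in shFox2-1 and -0.10 from it in shFox2-2, on log2(FPKM + 1). Relative to that shift, Tia1 differed from the controls by -0.49 in shFox2-1 and -0.24 in shFox2-2, and Tial1 by 0.11 and 0.37. Elavl2 stood at 0.03 in shFox2-1 as deposited and at -0.05 after centring. Elavl1 stood at -0.01 in shFox2-1 and 0.38 in shFox2-2 after centring, so its knockdown values no longer lay on the same side of both controls. The direction of Tia1 and Tial1 over both hairpins was the same on both scales, with log2 fold changes of -0.37 and 0.24 after centring.

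For each gene the 3 nearest among 7994 entries with a mean of at least 5 FPKM were found, by the Euclidean distance of centred log2 values over the 4 hairpins. With 4 values many entries lie close, so the names describe a shape only. Nearest to Tia1 were the predicted gene LOC668995 at a distance of 0.05 and the ribosomal protein genes Rps10 and Rpl24 at 0.08 each. Rps10 had 38.5 and 34.7 FPKM with the control hairpins and 26.7 and 27.9 with the knockdown hairpins. Nearest to Tial1 were Klhdc3 and BC008163 at 0.01 and 0.02 and Tdgf1, an ES cell co-receptor of NODAL, at 0.02, with 243 and 249 FPKM against 282 and 290. Nearest to Elavl1 were LOC666033 at 0.01 and 2210013O21Rik and the RNA helicase gene Ddx39 at 0.02. Nearest to Elavl2 were LOC100042424, Irf2bp1 and an entry without a name, all at 0.02.

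RBFOX2 binding was present in all 4 loci. Clusters of the tagged library were counted on the gene's strand where they overlapped the locus of the expression table by at least 1 base, and a locus with at least 1 cluster was found for 61.7% of the 8428 expressed entries with a known strand (on either strand, for 54.7% of all 12632). Coverage, fold over the untagged library and q-value are the authors', from 1 library with no replicate, and rank clusters within that list only. The 23 clusters were 54 to 190 bases wide, with coverage from 161 to 883 and a median of 268, against 374 over the list, and 9 of them lay above that median. For 11 of the 23 (47.8%) the fold was listed as infinite, and over the list for 44.9%. No cluster in the 4 loci lay on the opposite strand. Without an mm9 gene model, exons and introns were not assigned to clusters.

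The 3 Tia1 clusters lay together, 18.5 to 19.9 kb from the 5′ end of a locus of 29.1 kb. The first (86372714 to 86372840) had a coverage of 704, a fold listed as infinite and a q-value of 1.1882e-212. The second (86373291 to 86373424) had a coverage of 490 and a fold of 2.19, and the third (86374120 to 86374197) a coverage of 375 and a fold of 93.75. The rest of the locus held none.

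Tial1 held 7 clusters in 21.7 kb, spread from 0.63 to 15.0 kb. That is 0.322 per kb of locus, at the 96th percentile of expressed loci, whose median was 0.0386. The strongest (135602835 to 135602997), 2.11 kb from the 5′ end, had a coverage of 883 and a fold of 3.94. Next came one at 15.0 kb (135589920 to 135590109) with a coverage of 716 and a fold listed as infinite, and one at 10.2 kb (135594750 to 135594838) with a coverage of 592 and a fold of 5.29. The other 4 had coverage from 161 to 212, in the lowest 20.4% of the list. Their folds were 1.63, 1.85 and 1.89 and, for the cluster at 7.85 kb, listed as infinite. Tia1, at 0.103 per kb, stood at the 72.9th percentile. These percentiles are over expressed loci with a known strand, those without a cluster included. Over the summed length of those loci the density was 0.0635 per kb.

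Elavl2 held 11 clusters in 150 kb, 0.0733 per kb (63.9th percentile), of which 7 had a fold listed as infinite. None lay before 36.6 kb, 6 lay from there to 104 kb, and 5 lay in the last stretch, from 141.8 to 148.1 kb. The strongest (90982995 to 90983117), 84.6 kb in, had a coverage of 576 and a fold of 2.57. A cluster at 141.8 kb (90925754 to 90925825) had 470 and a fold of 26.11, and one at 145.5 kb (90922085 to 90922166) had 357 with a fold listed as infinite.

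The locus given for Elavl1 held few of its clusters. Inside it lay 2 (0.117 per kb, 76.3rd percentile), at 14.7 kb (4310700 to 4310790, coverage 459, fold 4.1) and 15.3 kb (4310079 to 4310138, coverage 236, fold listed as infinite). A further 3 that the deposited list assigns to the Elavl1 gene ID, on the same strand, lay past the 3′ end of the locus, where no entry of the expression table was listed. They had coverage of 866 at 26.1 kb (4299248 to 4299413, fold 7.73), 1661 at 36.1 kb (4289205 to 4289422, fold 2.12) and 7323 at 36.9 kb (4288257 to 4288854, fold 3.64). The last stood at the 96.5th percentile of coverage in the list. Of the coverage summed over the 5 clusters, 93.4% lay outside the locus, so most of the coverage assigned to Elavl1 lay beyond the stretch whose expression was given.

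**Figure D3:**
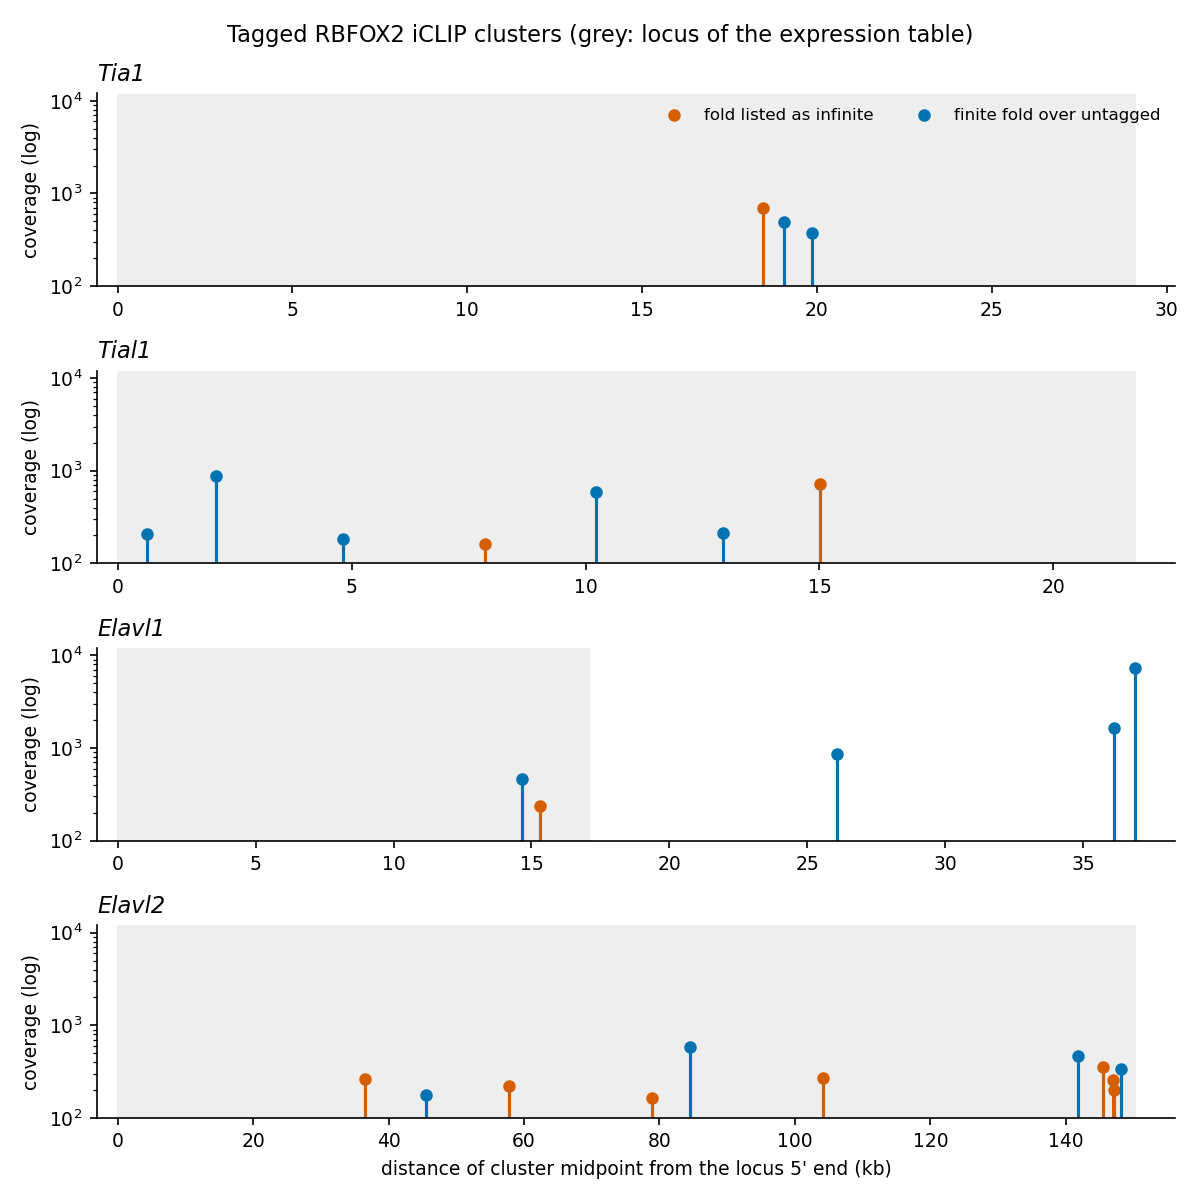
Coverage (y axis, log scale, from 100) of each iCLIP cluster against the distance of its midpoint from the 5′ end of the locus in kb (x axis, scaled per gene), with the locus of the expression table in grey and colour for a fold listed as infinite or finite. Tia1 clusters lie between 18.5 and 19.9 kb, Tial1 clusters spread from 0.63 to 15.0 kb, and 3 of the 5 Elavl1 clusters lie past the grey locus, up to a coverage of 7323.

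Elavl3 held 2 clusters, 26.5 and 27.4 kb into its locus, with coverage of 446 and 317 and folds listed as infinite, at an mRNA level of 1.34 to 2.40 FPKM. The locus of Elavl4 held 0, and 9 clusters carrying its gene ID lay upstream of it, at -10.4 to -57.4 kb from its 5′ end, with coverage up to 1611. They lay on the gene's strand, where no entry of the expression table was listed. Whether the Elavl4 transcript extends there was not tested, so its level holds for its entry only.

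Genes that work with TIA and ELAV proteins were read in 6 further lists, chosen with earlier results of these data known. By limma 0 genes of any list were called at an adjusted p of 0.05. The median log2 fold change over all 20281 entries was -0.0024. Regulators of AU-rich elements and mRNA stability had a median of 0.02, with 13 higher and 8 lower of 21 tested, and 3 had an unadjusted p under 0.05, all higher, where 2.3% of all entries did. The same count was 2 higher for stress granule proteins, 1 higher each for HuR transport and TIA splicing partners, and 0 for the other 2 lists, with 0 lower in all 6. The gene of the TIA splicing list was Fas, at 0.0819 to 0.540 FPKM, under the mean of 1 FPKM set for expressed entries. By intervals 2 of the 21 expressed regulators of AU-rich elements and mRNA stability were separated, both higher. Hnrnpab, an hnRNP gene, had control against knockdown values of 342 and 350 FPKM against 412 and 434. Pcbp2, a poly(C)-binding protein gene, had 299 and 313 against 361 and 368. The background for higher entries was 0.174%, and with the hairpins scaled by their median ratio neither gene was separated. Ptbp1 and Igf2bp1 were left out of the test for a failed status.

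Stress granule proteins, the assemblies in which TIA proteins gather, had a median of 0.07, with 13 higher and 9 lower of 22, and 0 were separated. Caprin1, a partner of G3BP1 in these granules, had 213 and 222 FPKM against 268 and 252, a log2 difference of 0.25. Eif4g1, a translation initiation scaffold, stood at 188 and 195 against 213 in each knockdown hairpin. Its values in shLuc, shGFP and shFox2-1 carried a low-data status. Genes of deadenylation, decapping and the exosome, which degrade mRNAs marked by AU-rich elements, had a median of -0.0026 with 13 higher and 13 lower, and 0 were separated. Cnot1, the scaffold of the CCR4-NOT deadenylase, stood at 85.2 and 86.2 against 97.5 and 89.5. Exosc6, an exosome subunit, shares its entry with Aars and stood at 87.6 and 110 against 95.6 and 91.5.

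Messages known to carry AU-rich elements or HuR sites had a median of -0.05, with 10 higher and 15 lower of 25, and 0 were separated. The most abundant were Ptma, which encodes prothymosin alpha, at 685 and 671 FPKM against 601 and 718, and Actb at 428 and 504 against 510 and 435. Ccnd1, named after its value was seen, was listed at 0 in shLuc, shGFP and shFox2-1 and at 23.9 FPKM in shFox2-2, so its difference has no scale here. Genes of HuR transport and modification had a median of -0.08, with 4 higher and 7 lower of 11. Mdm2, a ubiquitin ligase that also acts on HuR, had 36.1 and 38.1 FPKM against 55.6 and 49.5. It was separated higher without scaling by the median ratio, as were 22 (0.174%) of the 12632 expressed entries, and with it, as were 31. TIA splicing partners and targets had a median of -0.04, with 3 higher and 5 lower of 8, and 0 were separated. Snrnp70, a U1 snRNP protein gene, stood at 173 and 172 against 154 and 189, and Snrpa, another, at 67.3 and 79.1 against 68.4 and 69.4.

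**Figure D4:**
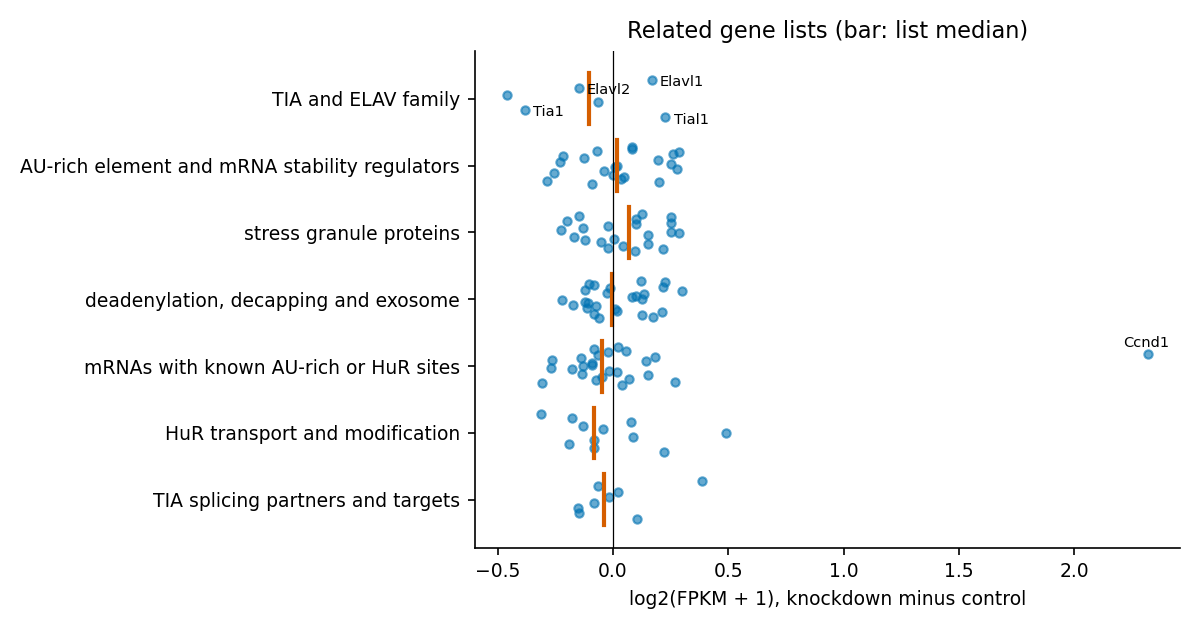
Difference in log2(FPKM + 1) between knockdown and control (x axis) for each tested gene of 7 lists (y axis), with a bar at the list median and the 4 family members named. Points of every list lie on both sides of 0, list medians run from -0.11 to 0.07, and Ccnd1 stands alone at 2.32 because it was listed at 0 in 3 hairpins.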

How the data were processed

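Expression values were deposited by the authors as FPKM, with bounds and a status beside each, per the file headers, as 1 value for both libraries that share a hairpin. Per the submitters' processing notes, TopHat2 2.0 and Cufflinks 2.1.1 were used on build mm9. Neither the annotation nor the scaling between hairpins is stated there. The iCLIP clusters were deposited with coverage, fold over the untagged library and q-value on mm9, already filtered for enrichment, per the file headers. For the clusters, aligner and caller are not given in the sources used here, and PCR copies were not shown to be independent molecules.

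From these values, 20281 of 26857 entries were tested, leaving out 105 with a failed status and 6477 at 0 in every hairpin (some met both). Fits used limma 3.58.1 in R 4.3.3, its trend option on, and log2(FPKM + 1) of all of them, 2 knockdown against 2 control values, with Benjamini-Hochberg adjustment. This scale understates the change of genes at low FPKM, and p-values measure the spread between hairpins, not cultures. A gene was called separated when both knockdown intervals lay above, or both below, both control intervals, among 12632 entries with a mean of at least 1 FPKM. Promoter sequences and gene strands came from RefSeq (GRCm38.p6), where all 4 genes were matched. Of 125 list genes 124 were found, through older symbols where needed. The named genes were the 4 members, Rbfox2, Elavl3 and Elavl4, up to 3 separated or else the 2 most abundant genes per list, the 3 nearest genes per member and its 3 strongest clusters (every cluster where there were 5 or fewer). The members and lists were chosen with earlier results of these data known.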

Additional observations from a re-analysis of the deposited data

Results flagged for a closer look

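In 3 of the named genes, cell type markers left aside, the 2 knockdown hairpins lay on opposite sides of both controls, a difference that was not tested. Several markers were split in the same way, among them Nanog, Klf4, Tubb3 and Tfap2c. On log2(FPKM + 1), shFox2-1 stood 0.30 above shFox2-2 for Elavl4, the neuronal ELAV paralog at about the floor of expression. The same difference, shFox2-1 minus shFox2-2, was -0.26 for Ptma and -0.29 for Snrnp70. The median expressed entry differed between these hairpins by 0.19 in the direction of Elavl4 and opposite to that of Ptma and Snrnp70.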

How the results depend on the processing

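With 4 pooled values and unknown depth, the limit on every expression result is the spread between hairpins. No paired analysis was possible because the deposited values pool the 2 replicates of each hairpin. limma called 0 of the 4 genes under pseudocounts of 0.1 and 5, a minimum mean of 1 FPKM, centring, no trend, status OK in every hairpin (which kept Tia1 and Elavl1) and each hairpin left out. The log2 fold change ran from -0.51 to -0.26 for Tia1, from 0.19 to 0.26 for Tial1 and from 0.07 to 0.27 for Elavl1. Rbfox2 missed an adjusted p of 0.05 in limma as fitted (0.913), with a pseudocount of 0.1 (0.356) or 5 (0.974), without the trend (0.922) and with a hairpin left out (0.327 to 1), and passed it over entries of at least 1 FPKM (0.0471) and after centring (0.00102). By intervals the count of separated genes was 3 by values only and 0 to 1 with a hairpin left out (Tia1, without shGFP). The count of clusters was 15 at a fold of at least 4 and 23 to 27 otherwise, the highest with loci extended by 25 kb past the 3′ end. That highest count took in a cluster past Tia1 that carries the gene ID of C87436. The extension by 25 kb, and leaving out the shared Elavl2 entry (0 called of 3), were chosen after seeing the data. With 1 hairpin left out, which leaves a lone value assumed to vary like the rest, signs turned for Elavl2 (-0.33 to 0.030, positive without shFox2-2), Elavl4 (-0.21 to 0.089, without shFox2-2), Exosc6 (-0.24 to 0.094, without shGFP), Snrpa (-0.20 to 0.034, without shGFP), Ptma (-0.17 to 0.084, without shFox2-1), Actb (-0.10 to 0.14, negative without shLuc or shFox2-1) and Snrnp70 (-0.16 to 0.13, without shFox2-1). Snrnp70 turned to 0.0015 after centring. The cause was not tested.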

Other observations

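Fas, the death receptor whose alternative exon is a known target of TIA1, lay far below the expressed range and above both controls in both knockdown hairpins. It had 0.0819 FPKM with shLuc, 0.224 with shGFP, 0.540 with shFox2-1 and 0.474 with shFox2-2, which differed by 0.39 on the log2 scale (standard error 0.098, limma adjusted p = 0.978). The pp32 family genes Anp32a and Anp32b, whose proteins bind HuR, lay lower in both knockdown hairpins, Anp32a with 32.6 and 33.5 FPKM against 28.9 and 24.3, and Anp32b at 104 and 114 against 101 and 91.1 (limma adjusted p = 0.978 each). These 3 genes were picked after their values were seen.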
